A study of Mus musculus with 19 samples.

Results

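The genes described here are 54 genes of the cell cycle and of DNA replication, measured in myeloid progenitors of mouse bone marrow with and without Dnmt3a and with and without PR. They were listed by name, with earlier results of these data known. The list holds 24 mitotic genes, 17 replication genes, 8 G1 cyclins and cyclin-dependent kinases, and 5 genes of the E2F, RB and inhibitor group. Of the 54, 50 had a value among the 15781 genes of the table: 22 mitotic, 15 replication, 8 G1 and 5 E2F, RB and inhibitor genes. Ccnb1, Cenpf, Pcna and Rrm2 had no expression value here and enter only the promoter counts. Cdk1 appears in the probe annotation under its older symbol Cdc2a.

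A dividing cell commits itself in G1, when D-type cyclins with Cdk4 and Cdk6 phosphorylate the RB protein and release E2F factors, and when cyclin E with Cdk2 follows. E2F targets include the genes that license and copy the genome, such as the Mcm2 to Mcm7 helicase, its loaders Cdc6 and Cdt1, and the enzymes that make deoxynucleotides. The mitotic genes are transcribed later, with a peak in G2 and M, and encode the kinases, motors and checkpoint proteins that build the spindle and separate the chromosomes. In the myeloid lineage, common myeloid progenitors (CMP) give rise to granulocyte-monocyte progenitors (GMP), and cells stop dividing as they mature.

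RNA was measured on Affymetrix exon arrays in 19 samples in 6 groups. The sorted populations were wild-type CMP (3 arrays), Dnmt3a-/- CMP (3), wild-type GMP (4) and Dnmt3a-/- GMP (3), all on C57Bl/6J, and further GMP carrying PR+/- with Dnmt3a intact (2) or PR+/-, Dnmt3a-/- (4), for which the labels name no strain. The product of Dnmt3a methylates DNA de novo. PR is not spelled out in the labels and is read from the series title as PML-RARA, the fusion protein of acute promyelocytic leukaemia. The labels give no age or sex of the animals, no promoter for PR and no statement that each array is another animal, so a p-value here speaks of the variation among these arrays, which may be technical. The tissue label is bone marrow throughout, and the population stands in the titles. In bulk samples, fewer cells of a type and less RNA per cell cannot be told apart.

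Values are mean log2 intensities over the probe sets of a gene, and a difference of 1 on this scale is a doubling. The members rest on 722 probe sets, from 2 for Cdc25b to 51 for Pole, with a median of 11 per gene. All 50 lay above background in every group mean, where background is the 95th percentile (4.70) of 955 olfactory receptor, vomeronasal receptor and keratin-associated protein genes. Dnmt3a itself lay between 7.07 and 7.65 on arrays with Dnmt3a and between 5.82 and 6.49 on those labelled Dnmt3a-/-. Immediate early and heat shock genes, known to be induced by stress, averaged 7.82 to 8.68 on 5 arrays, wild-type CMP replicate 1, wild-type GMP replicates 1 and 2 and PR+/-, Dnmt3a-/- replicates 1 and 2, and 6.14 to 7.48 on the other 14. Y-linked genes averaged 2.54 to 2.91 on the 6 Dnmt3a-/- CMP and GMP arrays, and were also low on wild-type CMP replicate 3 (3.06), wild-type GMP replicate 4 (3.25) and PR+/-, Dnmt3a-/- replicate 2 (3.12), against 6.73 to 7.25 on the rest. The titles of wild-type and Dnmt3a-/- arrays carry numbers from separate ranges, and those of the PR+/- arrays are written in another style. The labels do not say what the numbers mark, and between genotypes whatever they mark cannot be told apart from genotype. Within wild type, the arrays with the lowest numbers, CMP replicate 1 and GMP replicates 1 and 2, are those high in immediate early genes. The numbers of the other wild-type CMP arrays lie apart from those of the other wild-type GMP arrays. The part of this in the wild-type differences between CMP and GMP was not tested. Dnmt3a-/- CMP and GMP titles carry adjacent numbers, and with these as a random block 10 members were called between those groups, the 8 of the unblocked fit with Cdc6 (adjusted p = 0.0398) and E2f1 (adjusted p = 0.0383). Calls over all 15781 genes went from 1590 to 2060 with the block.

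The replication and the mitotic genes carry different short words before their start sites, which is why a few promoters of each are shown. RefSeq windows of 250 bases before to 50 after the start (GRCm38.p6, the first window of a gene) were found for 41 of the 54 genes, 19 mitotic and 13 replication genes among them. The words searched on both strands were the E2F words TTCCCGC or TTCGCGC or TTGCCGC or TTGGCGC, the cell cycle genes homology region (CHR) TTTGAA or TTCGAA, and the CCAAT box. The E2F word TTGGCGC read from the other strand shares the letters CCAA with the CCAAT box. An E2F word was present in 9 of 13 replication promoters (69.2%) and in 3 of 19 mitotic ones (15.8%), against 9.69% of 27025 genes and 13.5% of the 12609 measured here. A CHR word was present in 15 of 19 mitotic promoters (78.9%) and 2 of 13 replication promoters (15.4%), against 19.4% of all genes and 16.6% of measured ones. The CCAAT box was common to both, with 17 of 19 mitotic (89.5%) and 10 of 13 replication promoters (76.9%), against 37.9% of all genes. All 15 mitotic promoters with a CHR word also held a CCAAT box, and 7.7% of all genes held both. Of the other roles, 1 of 5 G1 and 2 of 4 E2F, RB and inhibitor promoters held an E2F word and none held a CHR word. A word is a description of the letters and not a shown binding site.

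The 150 bases before the start site of 3 replication genes are printed 5′ to 3′ with the E2F words in capitals. They were chosen as the helicase subunit with the clearest difference in these data, a second subunit with repeated words, and the large subunit of ribonucleotide reductase.
Mcm5, chr8:75109359-75109508, plus strand: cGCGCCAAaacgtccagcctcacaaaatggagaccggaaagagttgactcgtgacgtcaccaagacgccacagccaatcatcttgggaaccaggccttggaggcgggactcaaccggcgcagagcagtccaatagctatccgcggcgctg
Mcm6, chr1:128359706-128359855, minus strand: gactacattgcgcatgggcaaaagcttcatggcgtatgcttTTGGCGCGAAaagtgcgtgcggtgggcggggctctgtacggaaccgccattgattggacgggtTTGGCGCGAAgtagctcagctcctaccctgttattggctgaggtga
Rrm1, chr7:102441545-102441694, plus strand: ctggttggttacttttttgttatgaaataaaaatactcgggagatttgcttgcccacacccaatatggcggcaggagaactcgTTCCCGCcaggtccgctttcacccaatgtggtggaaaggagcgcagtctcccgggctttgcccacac
In Mcm5 the word GCGCCAA begins 149 bases before the start. Mcm6 holds the overlapping words TTGGCGC with GCGCGAA at 109 and 106 bases before the start and again at 46 and 43. Rrm1 holds TTCCCGC at 67 bases. CCAAT words also occur in all 3 stretches and are left in small letters.

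The same stretch of 4 mitotic genes, a kinase of mitotic entry, an activator of the anaphase ligase, a spindle motor and a further mitotic kinase, is printed with CHR and CCAAT words in capitals.
Cdk1, chr10:69352913-69353062, minus strand: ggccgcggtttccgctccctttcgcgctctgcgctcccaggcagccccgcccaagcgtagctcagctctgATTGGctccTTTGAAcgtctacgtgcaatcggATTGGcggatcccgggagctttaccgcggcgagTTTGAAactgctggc
Cdc20, chr4:118437344-118437493, minus strand: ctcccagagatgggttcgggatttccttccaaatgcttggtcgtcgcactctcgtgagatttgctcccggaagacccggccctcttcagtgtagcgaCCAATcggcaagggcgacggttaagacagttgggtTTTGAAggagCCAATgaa
Kif11, chr19:37376232-37376381, plus strand: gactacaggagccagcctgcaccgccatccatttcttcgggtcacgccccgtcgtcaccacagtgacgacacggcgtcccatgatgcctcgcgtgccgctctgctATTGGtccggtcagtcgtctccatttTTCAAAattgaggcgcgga
Plk1, chr7:122159285-122159434, plus strand: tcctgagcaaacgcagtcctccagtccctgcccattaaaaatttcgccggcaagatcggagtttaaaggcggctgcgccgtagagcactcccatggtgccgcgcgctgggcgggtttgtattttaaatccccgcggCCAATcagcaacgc
Cdk1 holds TTTGAA at 71 and 15 bases before the start, with ATTGG at 80 and 48. The Cdk1 promoter is among the mitotic ones with an E2F word, and TTCGCGC in this stretch is left in small letters. Cdc20 holds TTTGAA at 18 bases between CCAAT words at 53 and 8, and Kif11 holds TTCAAA at 19 bases and ATTGG at 45. In this stretch Plk1 holds only a CCAAT word, at 14 bases.

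Of 9 comparisons, 2 gave members past the threshold of 0.05 for the adjusted p of limma. Between GMP and CMP without Dnmt3a, 6 of the 50 genes were higher in GMP and 2 lower, where 10.1% of all genes were called, 5.5% higher and 4.58% lower. Between PR+/- and wild-type GMP, 1 gene was higher and 1 lower, where 3.07% of all genes were called, 2.19% higher and 0.881% lower. Read against those backgrounds, neither count is a result about the members as a set. Loss of Dnmt3a called 0 members in CMP (1.28% of all genes called), in GMP (1.33%) and in PR+/- GMP (0%). GMP against CMP in wild type (4.3%) and PR+/- against none in Dnmt3a-/- GMP (1.24%) also called 0, as did the tests of whether the Dnmt3a effect differs between CMP and GMP (0%) and whether the PR effect differs with Dnmt3a (0.0317%).

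At an unadjusted p under 0.05 by limma, loss of Dnmt3a in CMP marked 15 of the 50 members, each of them lower, where 7.23% of all genes were marked lower and 13.7% in either direction. It marked 2 members in GMP (18.9% of all genes) and 5 in PR+/- GMP (7.96%). GMP against CMP marked 7 members in wild type (16.3%) and 20 without Dnmt3a (20.9%). PR+/- marked 17 members in GMP with Dnmt3a (17.4%) and 8 in GMP without it (15.1%). The tests of a difference between effects marked 3 members for Dnmt3a by cell type (6.86%) and 6 for PR by Dnmt3a (14%). Several comparisons share arrays: the Dnmt3a-/- CMP enter both the Dnmt3a effect in CMP and the step to GMP without Dnmt3a, and the wild-type GMP enter both the Dnmt3a effect in GMP and the PR effect.

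**Figure D1:**
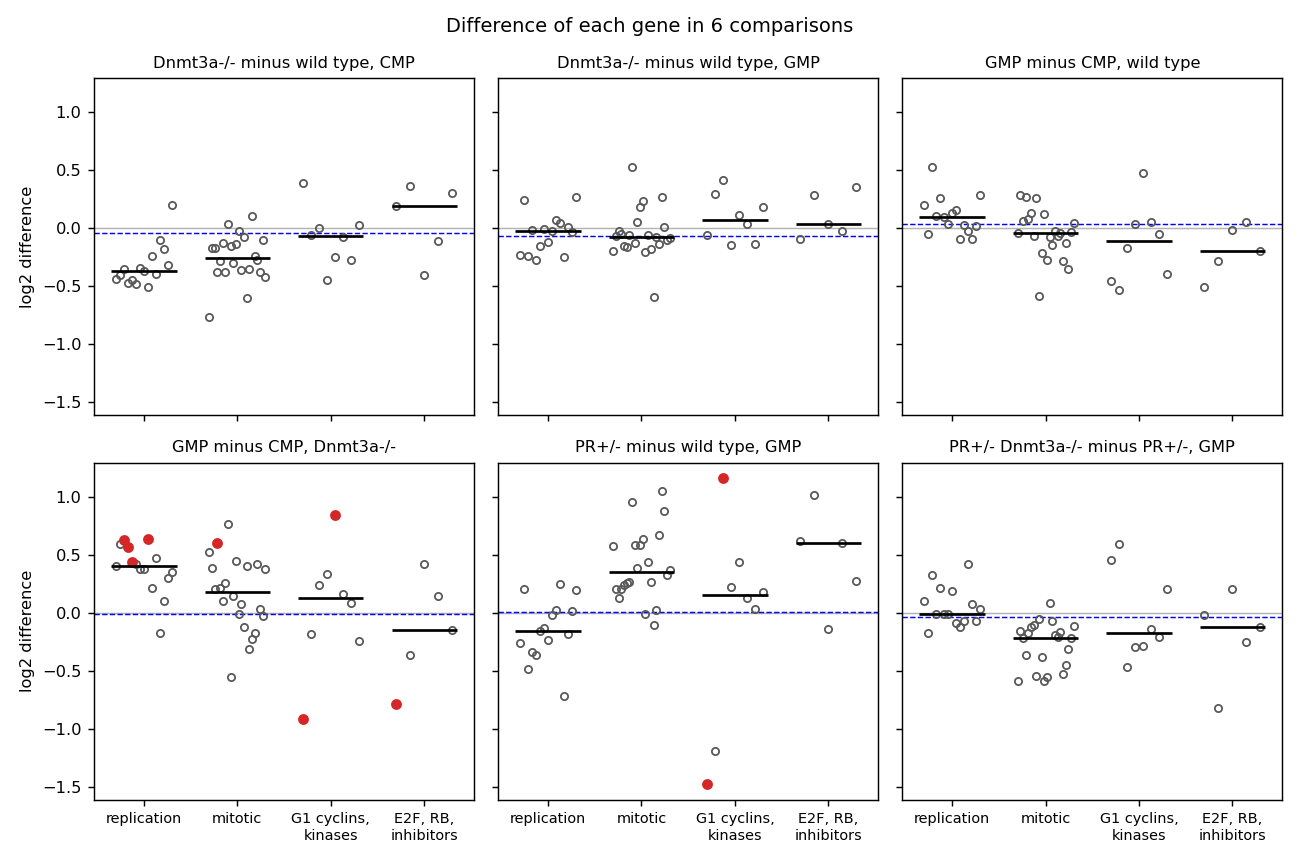
Log2 difference of each of the 50 genes (vertical axis) in 6 comparisons, by role (horizontal axis); black bars are role medians, the dashed blue line is the median of all 15781 genes, and filled red points passed limma's adjusted p of 0.05. The replication bar lies at -0.37 for Dnmt3a-/- minus wild-type CMP and at 0.40 for GMP minus CMP without Dnmt3a, and the mitotic bar at 0.35 for PR+/- minus wild-type GMP.

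Replication genes were lowest in Dnmt3a-/- CMP. Their mean level over the 15 genes was 8.21, 8.19 and 8.15 on the wild-type CMP arrays and 7.89, 7.96 and 7.73 on the Dnmt3a-/- CMP arrays. The other 4 groups ranged from 8.11 to 8.32, so the 3 Dnmt3a-/- CMP arrays lay below all 16 others. In CMP, 14 of 15 replication genes were lower without Dnmt3a (57.3% of all genes were), with a median difference of -0.37 where the median of all genes was -0.04. For 12 of them no Dnmt3a-/- array reached the wild-type range, where 13% of all genes were lower without overlap. No single replication gene passed the adjusted threshold, and the smallest adjusted p was 0.0821 for Mcm5. The test of whether the Dnmt3a effect differed between CMP and GMP called no gene of the table, and 1 of 15 replication genes had an unadjusted p under 0.05 there.

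Most replication genes were higher in GMP than in CMP when Dnmt3a was absent. There, 14 of 15 were higher in GMP (48.7% of all genes), with a median difference of 0.40 where all genes had -0.0090, and 13 did not overlap between the populations (17.3% of all genes higher without overlap). In wild type 11 of 15 were higher in GMP (55.8% of all genes), with a median of 0.10 where all genes had 0.04, and 1 did not overlap (7.2%). Loss of Dnmt3a in GMP left a median of -0.02, and loss in PR+/- GMP a median of -0.0069. PR+/- against wild-type GMP gave a median of -0.16, with 10 of 15 lower (49.7% of all genes) and 6 lower without overlap (12.3% of all genes).

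**Figure D2:**
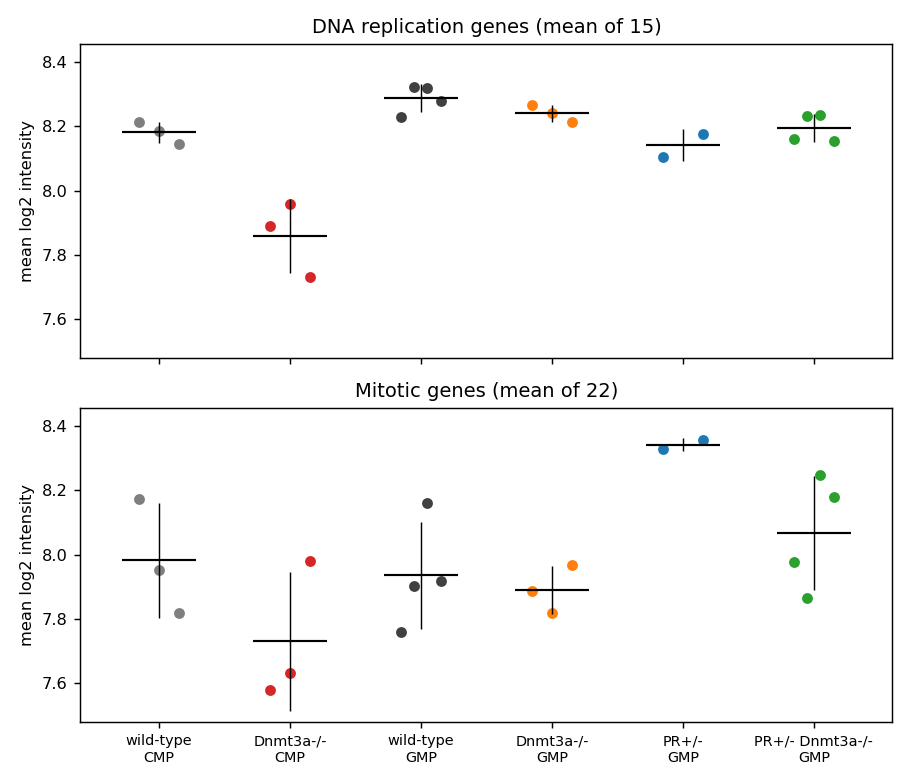
Mean log2 intensity over the 15 replication genes (top) and the 22 mitotic genes (bottom) on each array (points), by group, with the group mean and SD as lines. Replication genes lie at 7.73 to 7.96 in Dnmt3a-/- CMP and at 8.11 to 8.32 in all other groups, and mitotic genes are highest in PR+/- GMP, at 8.33 and 8.36.

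Among the helicase genes, Mcm5 gave the smallest adjusted p. Its level was 8.61, 8.47 and 8.48 in wild-type CMP and 8.08, 8.04 and 7.92 in Dnmt3a-/- CMP, a difference of -0.51 ± 0.13 (SE, 3 against 3 arrays; limma adjusted p = 0.0821). In GMP it was 8.52, 8.90, 8.57 and 8.71 in wild type and 8.59, 8.64 and 8.73 without Dnmt3a. The 3 Dnmt3a-/- CMP arrays stood apart below every other array, and GMP of both genotypes overlapped. Mcm5 rose from CMP to GMP without Dnmt3a by 0.64 ± 0.13 (1.56-fold, adjusted p = 0.00609), with 18 of its 19 probe sets higher. On PR+/- arrays it was 8.65 and 8.67 with Dnmt3a and 8.54 to 8.63 without, within the range of wild-type GMP. The difference between its Dnmt3a effects in GMP and CMP was 0.48 ± 0.18 (adjusted p = 0.580).

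The other subunits of the Mcm2 to Mcm7 ring were lower in Dnmt3a-/- CMP by 0.24 (Mcm6) to 0.48 (Mcm2), with adjusted p between 0.186 and 0.409, and none of them overlapped. Of all genes, 13% were lower there without overlap. Mcm6 was 9.81, 9.68 and 9.72 in wild-type CMP and 9.57, 9.57 and 9.36 in Dnmt3a-/- CMP. It was the replication gene with the lowest value for wild-type GMP against CMP (-0.10 ± 0.11), with 9.60, 9.69, 9.67 and 9.59 in GMP, so those groups overlapped by 1 array. Mcm7 was 8.13, 8.06 and 8.15 in wild-type CMP against 7.70, 7.77 and 7.69 without Dnmt3a. Its GMP arrays were spread more widely, at 7.87 to 8.34 in wild type and 7.90 to 8.55 in Dnmt3a-/-, and it was the replication gene with the highest value for PR+/- against wild-type GMP (0.25 ± 0.22, with 8.21 and 8.57 on the PR+/- arrays).

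Mcm10, which joins the helicase as it starts to unwind DNA, was 7.43, 7.56 and 7.38 in wild-type CMP and 6.97, 7.04 and 7.03 in Dnmt3a-/- CMP (-0.44 ± 0.12, adjusted p = 0.0978). GMP arrays read 7.55, 7.75, 7.79 and 7.80 in wild type and 7.39, 7.42 and 7.53 without Dnmt3a. It was thus lower without Dnmt3a on every array of both populations, and the difference in GMP was -0.27 ± 0.11 (adjusted p = 0.218). Mcm10 rose from CMP to GMP without Dnmt3a by 0.43 ± 0.12 (1.35-fold, adjusted p = 0.0338). The PR+/- arrays, at 7.38 and 7.34, lay below all 4 wild-type GMP arrays (-0.36 ± 0.14, adjusted p = 0.206), and those without Dnmt3a at 7.65, 7.71, 7.57 and 7.36.

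The GINS subunits Gins1 and Gins2, which join the Mcm ring to form the active helicase, were both lower in Dnmt3a-/- CMP without overlap. So were 13% of all genes. Gins1 was 6.37, 6.31 and 6.37 in wild-type CMP and 5.98, 6.12 and 5.91 in Dnmt3a-/- CMP. The GMP values were 6.92, 6.91, 6.92 and 6.76 in wild type and 6.83, 6.82 and 6.25 without Dnmt3a. It rose from CMP to GMP without Dnmt3a by 0.63 ± 0.15 (1.55-fold, adjusted p = 0.0193), and the wild-type difference of 0.53 ± 0.14 had an adjusted p of 0.0608. Neither pair of populations overlapped, so Gins1 was higher in GMP on every array of both genotypes. PR+/- GMP, at 6.25 and 6.53, lay below all wild-type GMP arrays (-0.49 ± 0.18, adjusted p = 0.174), while PR+/-, Dnmt3a-/- GMP had 6.54, 6.76, 6.85 and 6.72.

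Gins2 was 8.82, 8.86 and 8.46 in wild-type CMP and 8.28, 8.40 and 8.03 in Dnmt3a-/- CMP. In GMP the values were 8.67, 9.14, 8.66 and 8.80 in wild type and 8.74, 8.77 and 8.90 without Dnmt3a. It rose from CMP to GMP without Dnmt3a by 0.57 ± 0.17 (1.48-fold, adjusted p = 0.0463). Both PR+/- groups were lower than GMP of the same Dnmt3a genotype without overlap, at 8.37 and 8.59 with Dnmt3a and 8.45, 8.28, 8.53 and 8.60 without.

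Of the helicase loaders, Cdc6 was lower in Dnmt3a-/- CMP by 0.43 ± 0.13 (adjusted p = 0.146). Cdt1 was 8.34, 8.44 and 8.50 in wild-type CMP and 7.97, 8.16 and 7.96 in Dnmt3a-/- CMP (-0.40 ± 0.24, adjusted p = 0.511). Its wild-type GMP arrays read 8.67, 7.58, 8.61 and 8.67, so that replicate 2 alone lay below all CMP arrays, and Dnmt3a-/- GMP read 8.51, 8.58 and 8.78. Cdt1 was the replication gene with the lowest value for Dnmt3a loss in PR+/- GMP (-0.17 ± 0.18), with 8.58 and 8.60 on PR+/- arrays and 8.12, 8.50, 8.62 and 8.42 without Dnmt3a. These groups overlapped.

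Of the nucleotide enzymes and polymerases, Rrm1 differed by -0.31 ± 0.12 in CMP without Dnmt3a (adjusted p = 0.260), with no overlap. Tyms, which makes thymidylate, was the only replication gene higher in Dnmt3a-/- CMP, at 8.14, 8.22 and 7.80 against 7.71, 8.02 and 7.82, and these groups overlapped (0.20 ± 0.17). In GMP it was 7.83, 8.28, 8.39 and 8.05 in wild type and 8.43, 8.42 and 8.37 without Dnmt3a, also with overlap. Pole, the catalytic subunit of a leading-strand polymerase, differed by -0.18 ± 0.15 in CMP.

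Pola1, the catalytic subunit of the polymerase that primes each strand, was the replication gene with the largest PR difference. It was 7.46, 7.32, 8.01 and 7.93 in wild-type GMP and 6.91 and 7.02 in PR+/- GMP, a difference of -0.71 ± 0.25 (adjusted p = 0.146). PR+/-, Dnmt3a-/- GMP read 7.32, 7.64, 7.31 and 7.28, above both PR+/- arrays (0.42 ± 0.17, adjusted p = 0.620), and Dnmt3a-/- GMP read 7.72, 7.66 and 6.91. The third Dnmt3a-/- GMP array thus reached the PR+/- level without PR. In CMP it ranged from 7.33 to 7.91 with overlap of both genotypes.

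Mitotic genes differed less in CMP and were highest in PR+/- GMP. Their mean level over 22 genes was 8.17, 7.95 and 7.82 in wild-type CMP and 7.58, 7.63 and 7.98 in Dnmt3a-/- CMP, so that Dnmt3a-/- replicate 3 lay among the wild-type arrays. It was 7.76, 7.90, 8.16 and 7.92 in wild-type GMP, 7.89, 7.82 and 7.97 in Dnmt3a-/- GMP, 8.33 and 8.36 in PR+/- GMP, and 7.98, 7.86, 8.25 and 8.18 in PR+/-, Dnmt3a-/- GMP. Both PR+/- arrays were above all 17 others. In CMP, 20 of 22 mitotic genes were lower without Dnmt3a, where 57.3% of all genes were, with a median of -0.26 against -0.04 for all genes, and 3 did not overlap (13% of all genes). For PR+/- against wild-type GMP, 20 of 22 were higher (50.3% of all genes), with a median of 0.35 where all genes had 0.0025, and 10 did not overlap, where 16.1% of all genes were higher without overlap.

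Against PR+/- GMP, 21 of 22 mitotic genes were lower in PR+/-, Dnmt3a-/- GMP (55.6% of all genes), with a median of -0.21 where all genes had -0.03, and 9 did not overlap (12.3% of all genes lower without overlap). PR+/-, Dnmt3a-/- against Dnmt3a-/- GMP gave a median of 0.22, with 15 of 22 higher (56% of all genes). The PR by Dnmt3a test had a median of -0.10 and called no member. Without the 5 arrays high in immediate early genes the median was 0.27 for PR+/- against wild-type GMP and -0.10 for Dnmt3a loss in PR+/- GMP, and for PR by Dnmt3a it turned to 0.069.

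Aurka, a kinase of centrosome and spindle assembly, had the largest difference of any member in CMP without Dnmt3a. It was 8.18, 8.16 and 7.95 in wild-type CMP and 7.07, 7.44 and 7.47 in Dnmt3a-/- CMP, a difference of -0.76 ± 0.18 (adjusted p = 0.0642) with all 9 probe sets lower. GMP arrays read 7.75, 8.02, 8.40 and 8.05 in wild type and 7.78, 7.68 and 8.12 without Dnmt3a, with overlap. PR+/- GMP read 8.59 and 8.68, above every other array, and PR+/-, Dnmt3a-/- GMP 8.12, 7.48, 8.43 and 8.16. The PR difference was 0.58 ± 0.24 (adjusted p = 0.238) and that of Dnmt3a loss in PR+/- GMP -0.59 ± 0.26 (adjusted p = 0.630), which was -0.34 without the 5 arrays high in immediate early genes.

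Bub1, a kinase of the spindle checkpoint, was the only mitotic gene called. It was 7.04, 7.06 and 7.06 in wild-type CMP, and 6.40, 6.68 and 6.94 in Dnmt3a-/- CMP, all below wild type. The GMP values were 7.25, 7.10, 7.64 and 7.30 in wild type and 7.30, 7.34 and 7.20 without Dnmt3a. Bub1 rose from CMP to GMP without Dnmt3a by 0.60 ± 0.16 (1.52-fold, adjusted p = 0.0327), with all 24 probe sets higher. The wild-type populations did not overlap either, with a difference of 0.27 ± 0.15 (adjusted p = 0.428). It was 7.44 and 7.61 in PR+/- GMP and 7.06, 6.76, 7.49 and 7.34 in PR+/-, Dnmt3a-/- GMP.

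The motor Kif20a, which acts in cytokinesis, was lower in Dnmt3a-/- CMP by 0.60 ± 0.15 (adjusted p = 0.0827). Mki67, the gene of the proliferation marker Ki-67, had the highest difference of the mitotic genes there (0.11 ± 0.15), at 9.87, 10.10 and 9.98 in wild type and 9.98, 10.03 and 10.26 without Dnmt3a. Mki67 overlapped between groups in all 7 direct comparisons, and it rests on 3 probe sets. Aurkb, the kinase of the chromosomal passenger complex, was the mitotic gene with the highest difference for GMP against CMP in wild type (0.29 ± 0.16), with 8.51, 8.70 and 8.36 in CMP and 9.01, 8.42, 8.99 and 8.82 in GMP. These groups overlapped through wild-type GMP replicate 2.

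Kif23, a kinesin of the central spindle, had the largest Dnmt3a difference among mitotic genes in GMP. It was 7.41, 7.85, 7.74 and 7.64 in wild-type GMP and 7.22, 7.11 and 6.87 in Dnmt3a-/- GMP, a difference of -0.59 ± 0.17 (adjusted p = 0.101). The genotypes did not overlap in GMP. They overlapped in CMP, at 8.0, 7.66 and 7.53 in wild type and 7.09, 7.40 and 7.65 without Dnmt3a. PR+/- GMP, at 7.57 and 7.54, lay within wild-type GMP, and PR+/-, Dnmt3a-/- GMP read 7.19, 7.20, 7.54 and 7.45.

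Plk1, a kinase of mitotic entry and spindle assembly, had the largest mitotic PR difference. It was 7.60, 7.45, 8.38 and 8.05 in wild-type GMP and 8.92 on both PR+/- arrays, a difference of 1.05 ± 0.29 (adjusted p = 0.0720). With Dnmt3a absent it was 7.91, 7.95 and 8.57 without PR and 8.03, 8.28, 8.87 and 8.68 with it, and those groups overlapped. In CMP, 8.18, 8.01 and 7.79 in wild type overlapped with 7.60, 7.40 and 8.17 without Dnmt3a.

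Cdc20, which activates the anaphase-promoting complex, was among the most variable genes within a group. It was 8.0, 7.52 and 6.41 in wild-type CMP and 7.59, 7.18 and 7.26 without Dnmt3a. In GMP the values were 7.96, 7.99, 7.65 and 6.69 in wild type and 8.12, 7.80 and 8.40 without Dnmt3a, the highest difference of a mitotic gene for Dnmt3a loss in GMP (0.53 ± 0.36, adjusted p = 0.431). The lowest wild-type values, 6.41 and 6.69, came from the arrays with low Y-linked genes, wild-type CMP replicate 3 and wild-type GMP replicate 4. PR+/- GMP read 8.64 and 8.43, above wild-type GMP (0.96 ± 0.31, adjusted p = 0.119), and PR+/-, Dnmt3a-/- GMP read 8.08, 7.72, 7.92 and 8.23. With the Y-linked level as a covariate, the difference for Dnmt3a loss in GMP was 1.58 (limma adjusted p = 0.0232). All Dnmt3a-/- arrays of that fit were low in Y-linked genes. The covariate thus rests mainly on wild-type CMP replicate 3 and wild-type GMP replicate 4, and it can hardly be told apart from genotype.

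Cdk1, the kinase that drives mitosis, read 9.08 and 8.99 in PR+/- GMP and 7.98, 8.33, 8.88 and 8.60 in wild-type GMP, which did not overlap (0.59 ± 0.33, adjusted p = 0.392). PR+/-, Dnmt3a-/- GMP lay at separate levels, with 7.98 and 7.84 on replicates 1 and 2, the arrays high in immediate early genes, and 9.04 and 8.92 on replicates 3 and 4. Cdk1 was the mitotic gene with the lowest value for Dnmt3a loss in PR+/- GMP (-0.59 ± 0.37, adjusted p = 0.671), and without the 5 arrays high in immediate early genes that value was -0.054 and the PR difference 0.29. CMP read 8.17 to 8.40 in wild type and 8.05 to 8.36 without Dnmt3a, and Dnmt3a-/- GMP 8.51 to 8.78.

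Nusap1, a spindle microtubule protein, lay closest to the threshold for PR+/- against wild-type GMP (0.67 ± 0.17, with an adjusted p just above it), and Prc1, which bundles the midzone microtubules, differed by 0.88 ± 0.28 (adjusted p = 0.117), or 0.45 without the 5 arrays. Cenpe, a kinetochore motor, was the mitotic gene with the highest value for Dnmt3a loss in PR+/- GMP (0.08 ± 0.14), at 6.73 and 6.76 on PR+/- arrays and 6.88, 6.83, 6.83 and 6.78 without Dnmt3a. Cdc25b, a phosphatase that activates Cdk1, rests on 2 probe sets and ranged from 4.62 to 6.90 over the arrays. It was lowest of the mitotic genes for GMP against CMP in wild type (-0.58 ± 0.34), with 6.71, 5.75 and 5.56 in CMP and 5.23, 6.18, 5.65 and 4.62 in GMP, which overlapped. The other mitotic genes lay between -0.60 and -0.02 for Dnmt3a loss in CMP and between 0.13 and 0.88 for PR+/- against wild-type GMP.

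**Figure D3:**
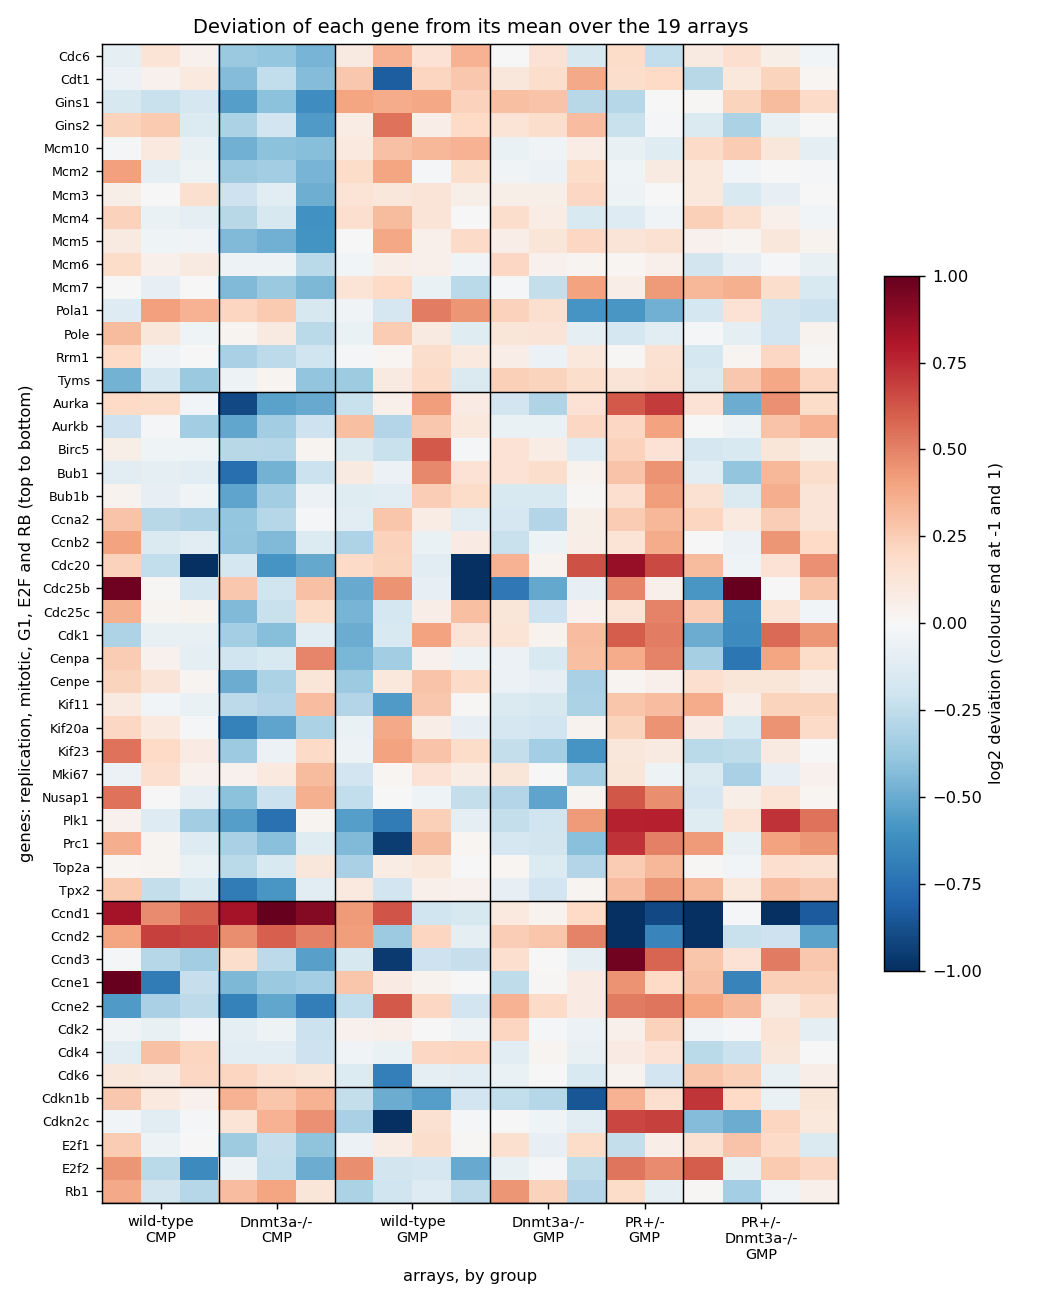
Deviation of each gene (vertical axis) from its mean over the 19 arrays (horizontal axis, by group), in log2 units from blue (-1 and below) to red (1 and above); lines separate groups and roles. The replication block is blue in the 3 Dnmt3a-/- CMP arrays except for Pola1, Pole and Tyms, which lie above their means on some of them. PR+/- GMP is red for mitotic genes such as Plk1 (8.92 on both arrays) and blue for Ccnd1 (5.61 and 6.41).

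The D-type cyclins differed in opposite directions with PR. Ccnd3 rose and Ccnd1 fell in PR+/- against wild-type GMP, the only members called there, and Ccnd2 was lower with an adjusted p of 0.0646. Cyclin D proteins share their kinase partners, and Cdk4 (0.03 ± 0.15) and Cdk6 (0.18 ± 0.18) had smaller values.

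Ccnd1 was 7.75, 7.94, 7.12 and 7.16 in wild-type GMP and 5.61 and 6.41 in PR+/- GMP, a difference of -1.48 ± 0.35 (2.79-fold lower, adjusted p = 0.0421), with all 6 probe sets lower. Dnmt3a-/- GMP read 7.41, 7.35 and 7.52, and PR+/-, Dnmt3a-/- GMP read 5.91, 7.31, 6.16 and 6.49, which did not overlap (-0.96 ± 0.31, adjusted p = 0.172). All 6 PR+/- arrays except PR+/-, Dnmt3a-/- replicate 2 lay below every array without PR. In CMP it was 8.15, 7.79 and 7.91 in wild type and 8.15, 8.64 and 8.24 without Dnmt3a. Ccnd1 fell from CMP to GMP without Dnmt3a by 0.91 ± 0.22 on the log2 scale (1.88-fold, adjusted p = 0.0176), and the wild-type difference was -0.46 ± 0.21 (adjusted p = 0.288).

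Ccnd2 was 9.45, 8.67, 9.24 and 8.94 in wild-type GMP and 7.40 and 8.37 in PR+/- GMP (-1.19 ± 0.32). It was 9.27, 9.31 and 9.52 in Dnmt3a-/- GMP and 7.77, 8.81, 8.83 and 8.50 with PR (-0.89 ± 0.28, adjusted p = 0.164). Neither pair overlapped. In CMP it was 9.42, 9.71 and 9.69 in wild type and 9.49, 9.63 and 9.53 without Dnmt3a. Wild-type GMP lay lower than CMP by 0.54 ± 0.17 (adjusted p = 0.110), with GMP replicate 1 inside the CMP range.

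Ccnd3 was 8.70, 7.91, 8.66 and 8.64 in wild-type GMP and 9.83 and 9.44 in PR+/- GMP, a rise of 1.16 ± 0.22 (2.24-fold, adjusted p = 0.0132), with all 4 probe sets higher. Dnmt3a-/- GMP read 9.03, 8.86 and 8.78 and PR+/-, Dnmt3a-/- GMP 9.14, 9.01, 9.38 and 9.13, which overlapped by 1 array (0.28 ± 0.19, adjusted p = 0.531). Both PR+/- arrays with Dnmt3a were above all others, and the difference between the PR effects with and without Dnmt3a was -0.88 ± 0.29 (adjusted p = 0.245), which did not pass. CMP read 8.85, 8.58 and 8.52 in wild type and 9.04, 8.60 and 8.32 without Dnmt3a. Wild-type GMP replicate 2 stood apart below the other wild-type arrays, and without it Ccnd3 was still called (0.97, adjusted p = 0.0118).

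These calls rest on 2 PR+/- arrays. Without PR+/- replicate 1 no member was called (adjusted p = 0.267 for Ccnd3 and 0.481 for Ccnd1), and none when the fit held only these 6 arrays. Ccnd1 lost its call without any of wild-type GMP replicates 1, 2 and 4 or PR+/- replicate 2 (adjusted p from 0.0525 to 0.0842).

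**Figure D4:**
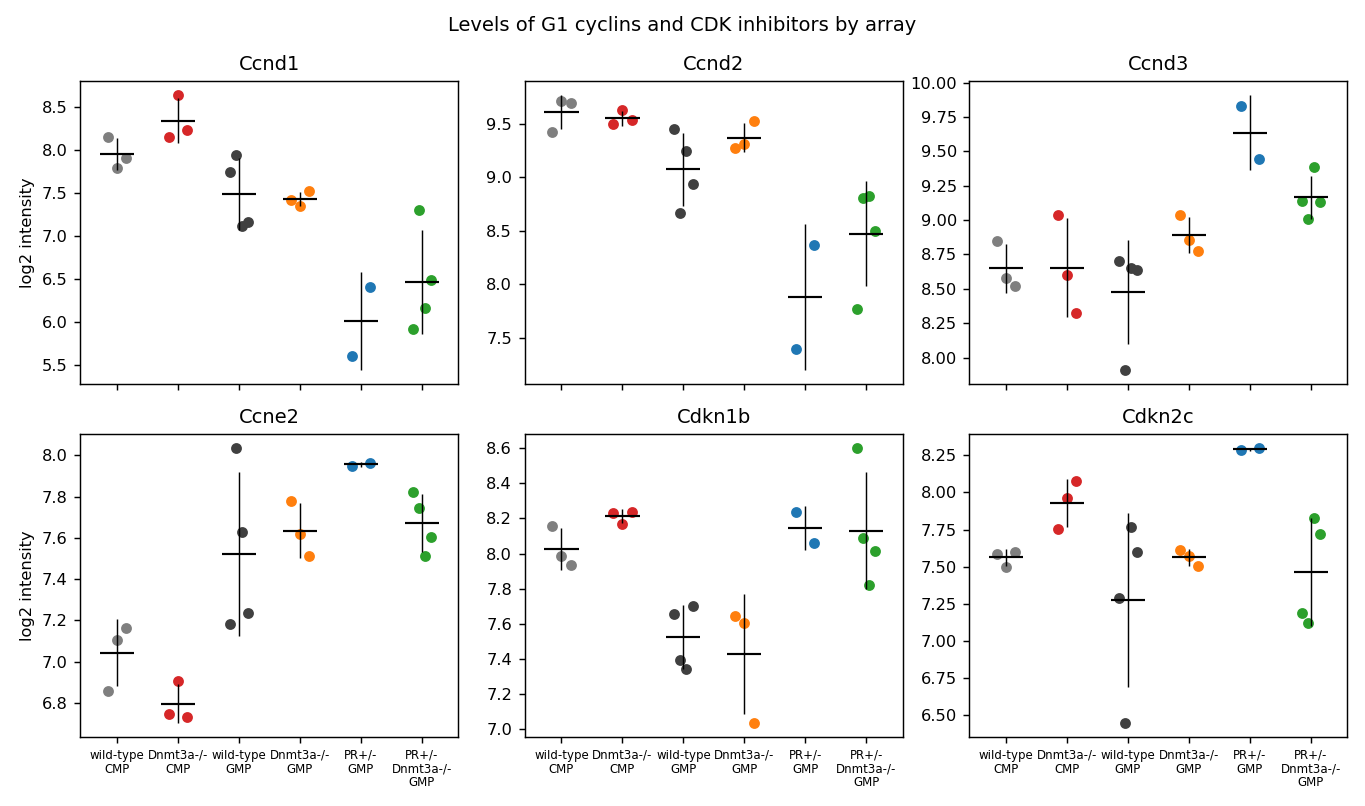
Log2 intensity of 6 G1 regulators on each array (points), by group, with the group mean and SD as lines; each panel has its own scale. In PR+/- GMP, Ccnd1 (5.61 and 6.41) lies below and Ccnd3 (9.83 and 9.44) above all wild-type GMP arrays, and Ccne2 is lower and Cdkn1b higher in both CMP groups than in Dnmt3a-/- GMP.

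The E-type cyclins, which activate Cdk2 at the entry to S phase, differed from each other. Ccne2 was 6.86, 7.10 and 7.17 in wild-type CMP and 6.75, 6.90 and 6.73 in Dnmt3a-/- CMP. In GMP it was 7.18, 8.04, 7.63 and 7.24 in wild type and 7.78, 7.62 and 7.51 without Dnmt3a, all above CMP. It rose from CMP to GMP without Dnmt3a by 0.84 ± 0.20 (1.79-fold, adjusted p = 0.0164), with all 9 probe sets higher, and the wild-type difference was 0.48 ± 0.19 (adjusted p = 0.205). PR+/- GMP read 7.95 and 7.97 and PR+/-, Dnmt3a-/- GMP 7.82, 7.75, 7.51 and 7.60.

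Ccne1 was 7.70, 5.88 and 6.35 in wild-type CMP, the widest spread of a member within a group, and 6.13, 6.22 and 6.24 in Dnmt3a-/- CMP (-0.45 ± 0.33, adjusted p = 0.601). The high value came from wild-type CMP replicate 1, which also had the highest immediate early level. It was 6.58 to 6.86 in wild-type GMP, 6.33 to 6.67 in Dnmt3a-/- GMP and 6.78 and 7.03 in PR+/- GMP. Of the kinase genes, Cdk2 ranged from 7.57 to 8.02 over all arrays and Cdk6 from 9.44 to 10.40. Cdk6 was higher in CMP than in GMP of both genotypes without overlap, by 0.39 ± 0.15 in wild type (adjusted p = 0.174) and 0.24 ± 0.16 without Dnmt3a (adjusted p = 0.441).

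Of the inhibitors and the E2F and RB genes, Cdkn1b was called in 1 comparison. In PR+/- against wild-type GMP the 5 genes had a median of 0.60, with 4 higher without overlap (16.1% of all genes). Cdkn1b encodes the inhibitor p27, which holds cyclin E and Cdk2 in check. It was 8.16, 7.98 and 7.93 in wild-type CMP and 8.23, 8.17 and 8.24 in Dnmt3a-/- CMP. GMP arrays read 7.65, 7.39, 7.34 and 7.70 in wild type and 7.65, 7.60 and 7.03 without Dnmt3a, so every GMP array without PR lay below every CMP array. Cdkn1b fell from CMP to GMP without Dnmt3a by 0.79 ± 0.17 on the log2 scale (1.72-fold, adjusted p = 0.00931), and in wild type the difference was -0.50 ± 0.16 (adjusted p = 0.107). PR+/- GMP, at 8.23 and 8.06, and PR+/-, Dnmt3a-/- GMP, at 8.60, 8.09, 7.82 and 8.01, all lay above the GMP arrays without PR, and 4 of these 6 arrays lay within the CMP range of 7.93 to 8.24. The PR differences were 0.62 ± 0.23 with Dnmt3a (adjusted p = 0.173) and 0.70 ± 0.20 without it (adjusted p = 0.126).

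Cdkn2c, an inhibitor of Cdk4 and Cdk6, had the largest Dnmt3a difference of any member in PR+/- GMP. It was 8.28 and 8.30 in PR+/- GMP and 7.19, 7.12, 7.83 and 7.72 in PR+/-, Dnmt3a-/- GMP, a difference of -0.83 ± 0.24 (adjusted p = 0.605). Wild-type GMP read 7.29, 6.45, 7.77 and 7.60 and Dnmt3a-/- GMP 7.61, 7.57 and 7.50. Both PR+/- arrays were above all others, with a PR difference of 1.01 ± 0.31 (adjusted p = 0.0991) with Dnmt3a and -0.10 ± 0.27 without. The difference of these effects, -1.11 ± 0.41, had an adjusted p of 0.278. As for Cdk1, PR+/-, Dnmt3a-/- replicates 1 and 2 lay below replicates 3 and 4. Without the 5 arrays high in immediate early genes the difference for Dnmt3a loss in PR+/- GMP was -0.51, the PR difference 0.60 with Dnmt3a and 0.21 without it, and the difference of these effects -0.39. CMP read 7.59, 7.50 and 7.60 in wild type and 7.75, 7.96 and 8.07 without Dnmt3a, which did not overlap.

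E2f1, an activator of replication genes, was lower in Dnmt3a-/- CMP without overlap. It was 7.15, 6.85 and 6.90 in wild-type CMP and 6.54, 6.66 and 6.49 without Dnmt3a (-0.40 ± 0.13, adjusted p = 0.186), with all 10 probe sets lower. The GMP values were 6.84, 6.97, 7.07 and 6.91 in wild type and 7.06, 6.81 and 7.08 without Dnmt3a, which overlapped. E2f2, its close relative, ranged from 5.14 to 6.22 in wild-type CMP and from 5.27 to 6.25 in wild-type GMP, and was 6.32 and 6.25 in PR+/- GMP. Rb1, the gene of the RB protein, had the highest Dnmt3a difference of this group in GMP (0.35 ± 0.19, adjusted p = 0.324), at 6.97, 7.08, 7.16 and 7.02 in wild type and 7.73, 7.52 and 6.99 without Dnmt3a. The third Dnmt3a-/- array lay within the wild-type range.

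Other genes of the pathway, listed by name in the same roles, were counted beside the members. For Dnmt3a loss in CMP, 0 of 46 other mitotic and 0 of 44 other replication genes were called, with medians of -0.20 and -0.17. There 1.28% of all genes were called and 0.361% fell. Of 21 other G1, E2F and RB genes 1 fell there, Skp2, a subunit of the ligase that degrades p27, by 0.60 ± 0.13 on the log2 scale (adjusted p = 0.0470). It read 7.29, 7.48 and 7.31 in wild-type CMP and 6.70, 6.97 and 6.62 without Dnmt3a. For GMP against CMP without Dnmt3a, 2 of 46 other mitotic and 8 of 44 other replication genes rose and none fell, and of the G1, E2F and RB genes 3 rose and 2 fell, where 5.5% of all genes rose and 4.58% fell. The largest were Mybl2 (1.37 ± 0.18), a factor of mitotic gene transcription, Mycn (-1.35 ± 0.32), the helicase subunit Cdc45 (0.98 ± 0.12) and Tk1 (0.93 ± 0.23), the thymidine kinase.

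In wild type, Cdc45 rose from CMP to GMP by 0.78 ± 0.11 (adjusted p = 0.00175) and Mycn fell by 1.31 ± 0.30 on the log2 scale (adjusted p = 0.0241). Cdc45 was 7.70, 7.81 and 7.80 in wild-type CMP and 8.62, 8.71, 8.47 and 8.41 in wild-type GMP. It was 7.25, 7.35 and 7.27 in Dnmt3a-/- CMP, below wild-type CMP, and 8.31, 8.25 and 8.24 in Dnmt3a-/- GMP, below wild-type GMP. For PR+/- against wild-type GMP, 1 of 46 other mitotic genes rose, Dlgap5 of the spindle (0.65 ± 0.15, adjusted p = 0.0388), and 1 of 21 G1, E2F and RB genes, the repressor E2f8 (0.74 ± 0.16, adjusted p = 0.0263). In that comparison 2.19% of all genes rose. The other mitotic genes had a median of 0.39 there, where all genes had 0.0025, with 26 of 46 higher without overlap (16.1% of all genes), and the other replication genes a median of -0.09. Of 4 other CDK inhibitors none was called by limma in any comparison. Dnmt3a loss in GMP and in PR+/- GMP called none of these genes.

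Markers of other cell types moved with the same groups. For Dnmt3a loss in CMP, 0.919% of all genes rose and 0.361% fell. Megakaryocyte and platelet markers averaged 7.54 to 7.98 in Dnmt3a-/- CMP against 6.13 to 6.23 in wild-type CMP, with 6 of 9 rising. Dendritic cell markers averaged 8.93 to 9.52 against 6.59 to 7.31, with 5 of 6 rising. Neutrophil maturation markers averaged 8.68 to 10.54 against 7.82 to 7.92 with 0 of 7 called. Monocyte and macrophage markers averaged 7.55 to 8.16 against 8.62 to 8.97, with 3 of 6 falling, and 4 of 9 stem and multipotent progenitor markers rose. Of 4 primary granule markers 3 fell, with averages of 9.64 to 9.76 against 9.75, 11.40 and 11.37. The wild-type array at 9.75, replicate 1, lay within the Dnmt3a-/- range and was also highest in erythroid markers, at 8.20 against 6.84 and 6.53 on replicates 2 and 3. Clec1b was near background in wild-type CMP, and no megakaryocyte or dendritic marker was near background in Dnmt3a-/- CMP. Of the stem list, Mecom, Tek, Procr and Ly6a were near background in wild-type CMP, and Procr and Ly6a also in Dnmt3a-/- CMP. The part of these differences in the lower replication genes was not tested.

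Between CMP and GMP without Dnmt3a, primary granule markers averaged 9.64 to 9.76 in CMP and 12.14 to 12.22 in GMP (4 of 4 rose), and eosinophil markers 4.29 to 5.52 and 9.81 to 9.87 (3 of 3 rose). Of basophil and mast cell markers 5 of 6 rose and 1 fell, where 5.5% of all genes rose and 4.58% fell. Dendritic markers fell (6 of 6, from 8.93 to 9.52 in CMP to 7.10 to 7.34 in GMP), as did 7 of 9 megakaryocyte, 7 of 9 stem and 6 of 8 erythroid markers. The part of these shifts in the higher replication genes was not tested. In PR+/- GMP, basophil and mast cell markers averaged 9.41 and 9.51 against 7.13 to 7.84 in wild-type GMP (4 of 6 rose), and monocyte and macrophage markers 7.68 and 7.92 against 8.78 to 8.91 (3 of 6 fell). Neutrophil maturation markers averaged 8.96 and 8.89 in PR+/- GMP against 7.46 to 8.18 in wild-type GMP. Between those groups 2.19% of all genes rose and 0.881% fell. Siglech of the dendritic list and Ms4a1 and Ebf1 of the B cell list were near background in every GMP group, wild type included. Batf3 of the dendritic list was near background only in PR+/- GMP. Immediate early and heat shock genes averaged 6.25 and 6.45 there, 6.61 to 7.83 in wild-type GMP and 6.14 to 8.65 in PR+/-, Dnmt3a-/- GMP. Their part in the differences of mitotic genes and D-type cyclins was not tested.

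Leaving out the 5 arrays high in immediate early genes kept the replication values in CMP (median -0.34 without Dnmt3a) and for GMP against CMP without Dnmt3a (0.40, where no such array enters). It called 13 members in the latter comparison, the 8 of the full set and Cdc6, Cdk1, Cdt1, E2f1 and Mcm2. For PR+/- against wild-type GMP it called 3 members, Ccnd1, Ccnd3 and E2f2. Calls over all 15781 genes went from 1590 to 2439 for GMP against CMP without Dnmt3a and from 484 to 500 for PR+/-. The differences between Dnmt3a-/- CMP and GMP were the same in both fits, and only the estimate of the spread changed. Leaving out single arrays cut the 8 calls of GMP against CMP without Dnmt3a to between 2 and 5, with Mcm5 and Cdkn1b called in all 6 of those fits. All-gene calls lay between 968 and 1176 in them.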

How the data were processed

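The deposited table holds linear intensities of 194293 exon probe sets on 19 arrays, already normalized by the authors. RMA, Partek and mm9 are named in the submitters' processing notes with no version or role, and the selection of probe sets was not given in the sources used. Array medians were 53.0 to 56.8, and the values were used as deposited. They were converted here to log2 and averaged over the probe sets carrying 1 gene symbol (179496; 1328 with several and 13469 with none were left out). This left 15781 genes, each with 9 probe sets at the median. Older symbols were updated through the RefSeq table of GRCm38.p6, used for names and promoter windows only (2039 updated, 13727 as annotated, 37 kept).

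Two-sided tests came from lmFit and eBayes of limma 3.58.1 (R 4.3.3). The Benjamini-Hochberg method was applied across all genes, at a threshold of 0.05. One fit held the 13 wild-type and Dnmt3a-/- arrays, one the 13 GMP arrays, and one the 6 PR+/- arrays. The script was tested on simulated data. The number of arrays limits the precision. Values per array are given for members past the threshold and for the highest and lowest member of each role in a comparison, and of other pathway genes for at most the 4 largest calls. Members, lists and tests were chosen with earlier results of these data known. Alternatives were other summaries of probe sets, quantile normalization, a filter on dim genes, other sets of arrays in the fit, array weights, a Y-linked covariate, a random or replicate block, and leaving out arrays.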

Additional observations from a re-analysis of the deposited data

Results flagged for a closer look

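Of 104 sets of 4 arrays, for the 50 genes and the mitotic and replication means in both groups of 4, 7 held an array whose gap to the nearest of the others passed Dixon's 95% critical value. Chance alone gives such a gap in about 1 in 20 sets. In wild-type GMP, replicate 2 was low for Cdt1 (7.58, others 8.61 to 8.67), Ccnd3 (7.91, others 8.64 to 8.70) and Cdk6 (9.44, others 9.99 to 10.02), and replicate 4 was low for Gins1 (6.76, others 6.91 to 6.92). In PR+/-, Dnmt3a-/- GMP, replicate 2 was low for Prc1 (7.30, others 7.78 to 7.82) and Ccne1 (5.91, others 6.82 to 6.88) and high for Pola1 (7.64, others 7.28 to 7.32). Both replicates 2 are among the 5 arrays high in immediate early genes, and the part of that in these values was not tested.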

How the results depend on the processing

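No value changed direction with a call under the alternatives run. The number of members called by limma was 0 for Dnmt3a loss in CMP, and became 1 (Mcm5) with all 19 arrays in 1 fit and 5 (Aurka, Kif20a, Mcm5, Mcm10 and Cdc6) with array weights. Over all 15781 genes the calls in these fits were 202, 202 and 1064. For Dnmt3a loss in GMP the member count went from 0 to 2 (Kif23 and Mcm10) with array weights and 1 (Cdc20) with the Y-linked covariate. Over all genes the calls were 210, 1734 and 48 in that order. For GMP against CMP in wild type the member count went from 0 to 1 (Gins1) with all 19 arrays and 2 (Gins1 and Ccnd2) with array weights. All-gene calls were 678, 697 and 742. For GMP against CMP without Dnmt3a the member count went from 8 to 4 with the median of the probe sets, 17 with array weights and 13 without the 5 arrays high in immediate early genes. All-gene calls were 1590, 997, 3853 and 2439 in that order. For PR+/- against wild-type GMP the member count went from 2 to 1 with the median of the probe sets or the Y-linked covariate, 0 with the brighter probe sets or only the groups compared, 5 with all 19 arrays and 7 with array weights. All-gene calls were 484, 262, 349, 348, 269, 850 and 1045 in that order. For PR+/- against none without Dnmt3a, array weights gave 4 members, while all-gene calls went from 195 to 935. Without the 5 arrays, the median for wild-type GMP against CMP was 0.18 for mitotic and 0.15 for replication genes, the mitotic median for Dnmt3a loss by cell type was -0.039, and that for PR by Dnmt3a 0.069. With single arrays left out, mitotic medians were -0.12 to 0.032 for wild-type GMP against CMP. They were 0.12 to 0.37 for Dnmt3a loss by cell type, where the sign thus changed without the 5 arrays. The replication median for Dnmt3a loss in PR+/- GMP was 0.045 with the median of probe sets, 0.059 with the brighter ones and 0.045 without the 5 arrays; that for PR+/- without Dnmt3a was -0.093 with the median of probe sets; and that for PR by Dnmt3a was 0.13 and 0.11 with the median and the brighter probe sets. Apart from the smaller sets of arrays or probe sets, the cause was not tested.

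Leaving out 1 array at a time gave 0 to 1 members for GMP against CMP in wild type (Ccnd2, without wild-type GMP replicate 1), 2 to 5 without Dnmt3a and 0 to 3 for PR+/- against wild-type GMP. Replication medians ranged from -0.061 to -0.019 for Dnmt3a loss in GMP, 0.046 to 0.14 for GMP against CMP in wild type, 0.21 to 0.34 for Dnmt3a loss by cell type, -0.030 to 0.057 for loss in PR+/- GMP, -0.17 to -0.11 for PR+/- against wild-type GMP, -0.074 to -0.019 for PR+/- without Dnmt3a and -0.028 to 0.095 for PR by Dnmt3a. For GMP against CMP without Dnmt3a, Mcm10 and Gins2 lost their calls in all 6 of these fits, Bub1 in 5, Gins1 and Ccne2 in 4 and Ccnd1 in 3.

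A replicate block was fitted for Dnmt3a loss in PR+/- GMP and for PR by Dnmt3a. It called 0 members in both, as without it, while calls over all genes stayed at 0 in the former and went from 5 to 539 in the latter. Same-numbered arrays had deviations correlated at 0.077 and 0.017, and the labels do not say that the numbers pair the samples.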
